A study of Homo sapiens with 12 samples.

Results

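The genes described here encode the constitutive proteasome and the proteins that assemble it. They were the 46 genes whose identifiers map to a list of symbols fixed by family, out of 58884 genes with a row in the count table. The list holds 7 alpha and 7 constitutive beta subunits of the 20S core, 6 ATPases and 4 other subunits of the 19S base, 8 subunits of the 19S lid, 3 chaperones of 19S assembly, 5 activators and inhibitors, 5 chaperones of 20S assembly, and the transcription factor NFE2L1. RNA was sequenced from U2932 and TMD8, established cell lines of diffuse large B-cell lymphoma (DLBCL). Each line was split and grown as 2 separate cultures for a week, and each culture was treated for 4 h with rituximab (R), ofatumumab (OF) or a human IgG1 isotype control at 20 µg/mL. R and OF both bind CD20 on B cells, and the isotype control has no such target. This gave 12 libraries, 2 for each of 6 conditions, of 15440226 to 27110612 counts. The p-values therefore measure the spread between cultures of one line. In bulk RNA, fewer cells of a kind and less RNA per cell cannot be told apart.

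The proteasome degrades proteins tagged with ubiquitin. The 20S core is a barrel of alpha and beta rings with its active sites on PSMB5 (chymotrypsin-like), PSMB6 (caspase-like) and PSMB7 (trypsin-like), and the 19S cap recognizes the ubiquitin chain, removes it and unfolds the substrate with a ring of ATPases. Because subunits are needed in fixed ratios, their genes are often regulated together, and NFE2L1 is the factor that raises them when proteasome activity is short, through antioxidant response elements in their promoters. B-lineage tumors make and degrade much protein, and proteasome inhibitors are used to treat several of them.

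The antioxidant response element has the core TGACNNNGC, and promoter sequence is shown because these genes are known to share it. RefSeq promoter windows of 250 bases before and 50 bases after the start were matched to 40 of the 46 genes. The core was found on either strand in 15 of them (37.5%), against 16.1% of 27305 genes with a window. Those 27305 genes, used for every motif here, include genes that were not tested, whereas all 46 genes were tested. CCAAT was found in 50% of the 40 genes against 39.7% of all, and the ETS-type core CCGGAAG in 37.5% against 12.2%, also on either strand. Each motif was counted on its own, and matches of different motifs may overlap. The other motifs searched were GCGCATGCG, the NRF1 type, found in 2.5% against 2.34%, and the heat shock type GAANNTTC or TTCNNGAA, found in 7.5% against 16.2%. A match describes the letters of the window and is not evidence that a factor binds there.

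In 6 genes the core and the stretch around it lay before both the RefSeq start and the first annotated base of the gene. PSMD9 is one of them and has uncertain counts, and the stretches of the other 5 are printed 5′ to 3′ on the gene's strand in GRCh38.p14 with the core in capitals. In PSMD3 a core also lay before both, but the stretch around it ran past the first annotated base, so it is not printed. The core began 104 bases before the start of PSMB3 (chr17:38752607-38752675, plus strand), 86 before PSME1 (chr14:24136078-24136146, plus strand), 134 before PSMD5 (chr9:120843018-120843086, minus strand), 165 before PSMD12 (chr17:67366704-67366772, minus strand) and 34 before PSME4 (chr2:53970994-53971057, minus strand, with the core on the opposite strand).
PSMB3: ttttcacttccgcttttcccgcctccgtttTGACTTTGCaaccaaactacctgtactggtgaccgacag
PSME1: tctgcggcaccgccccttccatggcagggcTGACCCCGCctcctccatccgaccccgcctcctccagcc
PSMD5: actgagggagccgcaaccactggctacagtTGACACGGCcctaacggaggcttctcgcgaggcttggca
PSMD12: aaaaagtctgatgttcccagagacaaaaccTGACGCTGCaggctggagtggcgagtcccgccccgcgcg
PSME4: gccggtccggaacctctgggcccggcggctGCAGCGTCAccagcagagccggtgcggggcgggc
With R in U2932, described in full below, PSMB3, PSME1 and PSMD5 were called higher, as was PSMD3, and PSMD12 and PSME4 were not called. The call of PSMD5 did not hold in most fits without a library. Whether these genes differ from each other in response was not tested. Of the 15 genes with the core, 9 were upregulated by R in U2932, against 10 of the 25 whose window lacked it, and with OF the counts were 7 of 15 and 10 of 25. Among all genes tested with a window, 20.7% of 1989 with the core and 17.4% of 8309 without it were higher with R, and 21.6% and 19.4% with OF.

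Values are CPM, counts relative to the size of the library, scaled by the trimmed mean of M-values (TMM) within a cell line. All 46 genes passed the filter on low counts in both lines. Differences were tested with edgeR's quasi-likelihood test, and a gene was called at a Benjamini-Hochberg adjusted p-value, over all genes tested, below 0.10, or below 0.30 for R against OF in U2932. Very low counts make 4 of the genes uncertain. In the annotation, 88.6% of the coding bases of PSMA1, 97.1% of PSMA2, 70.4% of PSMA6 and 58.7% of PSMD9 also lie in a second gene on the same strand. Whether reads shared by 2 genes were dropped is not given in the sources used here, but these were the 4 genes of the list with the lowest levels, with 35 to 246 counts per library. Of the 46 genes, 18 have pseudogenes named after them, 45 in all, and 6 share coding bases with a gene on the other strand, most of all PSMC1 with NRDE2 (47.7%) and ADRM1 with LAMA5 (29.6%).

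B-cell markers summed to 1967 to 3133 CPM in U2932 and 2317 to 3500 in TMD8, and T-cell and erythroid markers were at or near 0 (at most 0.137 CPM). Myeloid markers summed to at most 1.06 CPM. MS4A1, which encodes CD20 itself, was read in every library, at 951 ± 73.5 CPM (SD, n = 2) under isotype in U2932 and 1094 ± 287 in TMD8. The epithelial list stood at 30.1 to 39.2 CPM in U2932, nearly all of it EPCAM, and at no more than 2.64 CPM in TMD8.

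**Figure D1:**
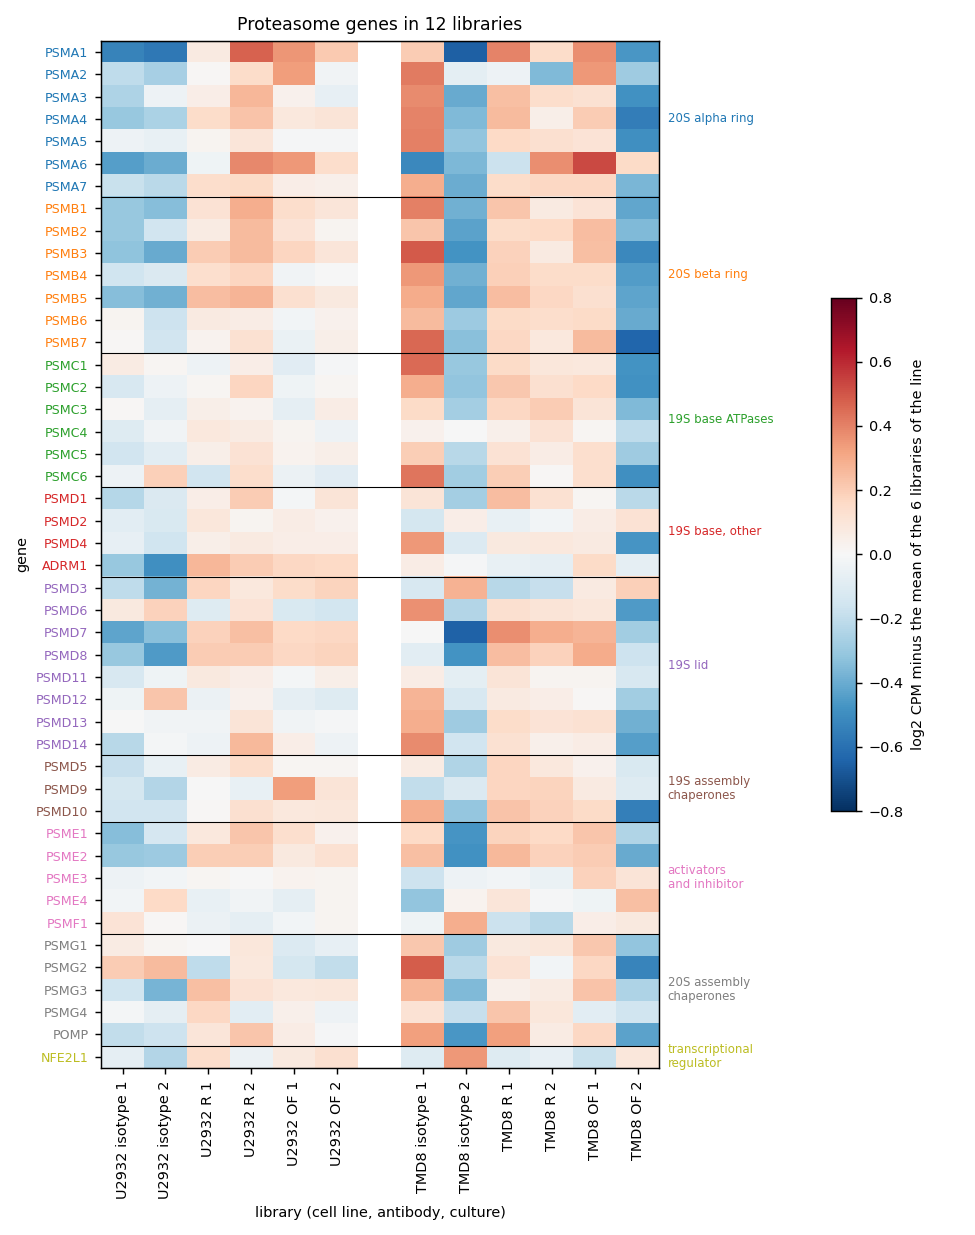
Log2 CPM of each of the 46 proteasome genes (rows, by group) in each of the 12 libraries (columns), minus the gene's mean over the 6 libraries of its cell line, from blue (lower) to red (higher). In U2932 both isotype libraries are bluer than the 4 antibody libraries, and in TMD8 the isotype and OF libraries of culture 2 are blue for most genes.

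Under isotype, subunits of 1 particle did not have equal RNA levels. Levels of different genes were compared as CPM per kilobase of the longest protein-coding transcript in the annotation, with both lines scaled together. In the beta ring they ran from 50.3 for PSMB2 to 265 for PSMB4 in U2932, a 5.27-fold range, and from 17.4 for PSMB2 to 220 for PSMB3 in TMD8. The alpha ring ran from 54.9 for PSMA5 to 295 for PSMA7 in U2932 once the 3 uncertain genes were set aside. PSMA7 was the highest of all 46 genes in both lines, at 268 ± 84.5 in TMD8.

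The 19S groups were more even. The ATPases spanned 39.4 (PSMC6) to 167 (PSMC3) in U2932, and the lid spanned 37.8 (PSMD12) to 106 (PSMD6), a 2.8-fold range. The assembly chaperones reached lower, from 6.81 (PSMG4) to 89.9 (POMP) in the 20S set, with 11.3 for PSMD5 and 34.8 for PSMD10 in the 19S set. POMP, which guides the beta ring and is degraded as the first substrate of the finished core, was thus within the range of the subunits, and the 4 PSMG genes, whose products form 2 dimers that guide the alpha ring, stood below it in both lines. NFE2L1 was at 34.1 ± 2.64 in U2932 and 30.8 ± 7.07 in TMD8, which overlap.

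The constitutive active sites exceeded their inducible counterparts under isotype. In U2932, PSMB5 stood at 73.4 ± 1.04 against 33.3 ± 2.77 for PSMB8, PSMB6 at 125 ± 11 against 50.6 ± 4.67 for PSMB9, and PSMB7 at 183 ± 14.1 against 10.4 ± 1.8 for PSMB10. PSMB8, PSMB9 and PSMB10 replace those subunits in the immunoproteasome, which favours peptides for antigen presentation. In TMD8 the same pairs were 89.3 ± 29.6 against 53.5 ± 13, 87.5 ± 22 against 38.1 ± 15.3, and 134 ± 49 against 18.3 ± 3.93. The constitutive gene was the higher of the pair in all 4 isotype libraries.

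**Figure D2:**
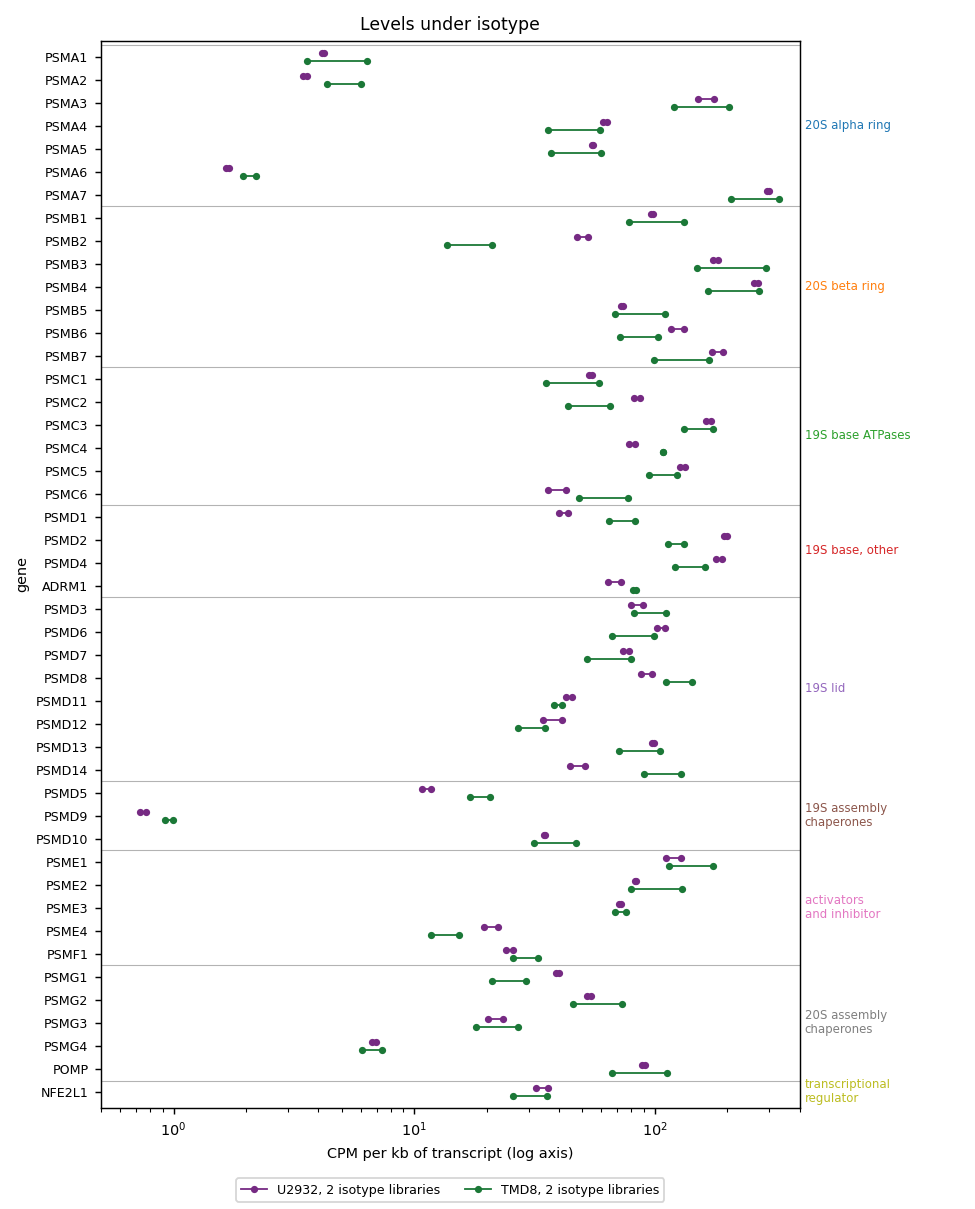
CPM per kilobase of transcript (log axis) of each gene in the isotype libraries of U2932 (purple) and TMD8 (green), with the 2 libraries of a line joined. The pairs of U2932 nearly coincide, those of TMD8 lie apart for most genes, and PSMB2 and PSMD14 separate the lines.

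Between the lines under isotype, 7 of the 46 genes were higher in U2932 and 8 were higher in TMD8. The background was high, with 33.2% of the 16187 genes tested higher in U2932 and 33.7% lower, so a smaller share of the proteasome genes than of all genes differed. The median log2 difference of the 46 genes, U2932 minus TMD8, was 0.01. It averages TMD8 isotype libraries that differed from each other by a median of −0.56 over these genes (culture 2 minus culture 1).

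PSMB2, a core subunit without an active site, differed most. Scaled with both lines together it was 50.3 CPM per kilobase in U2932 and 17.4 in TMD8, and its log2 difference was 1.53 ± 0.22 (SE, adjusted p = 9.4e-05 by edgeR). PSMD14, the deubiquitinase of the lid that removes the chain from the substrate, went the other way at −1.20 ± 0.2 (adjusted p = 3.4e-04), with 47.9 ± 5 CPM per kilobase in U2932 and 110 ± 27.3 in TMD8. For both genes the libraries of the lines did not overlap.

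The other genes higher in U2932 were PSMD2 (0.67), PSMG1 (0.65), PSMC2 (0.63), PSME4 (0.63), PSMB6 (0.52) and PSMD4 (0.39). Those higher in TMD8 were PSMD1 (−0.82), PSMD5 (−0.73), PSMC6 (−0.68), PSMA2 (−0.55), PSMD8 (−0.46), PSMC4 (−0.42) and ADRM1 (−0.27). PSMD1 and PSMD2, the large scaffold subunits of the base, thus differed in opposite directions. The TMD8 isotype libraries lie far apart, as described below, and without that of culture 1 the count was 26 of 46, without that of culture 2 it was 21, and without the U2932 isotype library of culture 2 it was 10. With a replicate block it was 23, against 68.1% of all genes. For the fits without a library the share of all genes called is not given here. Their counts show only how the calls shift with the library left out. Of the genes named above, PSMC6, PSMA2, PSMD8 and ADRM1 were not called without the TMD8 isotype library of culture 1, PSMC2, PSMB6 and PSMD4 were not called without that of culture 2, and PSMD4 was not called with the block.

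Among related genes, PSMA8, the testis form of PSMA7, was read at 76.1 ± 3.1 CPM under isotype in U2932 and 1.84 ± 0.425 in TMD8, a log2 difference of 5.26 ± 0.17 (adjusted p = 1.7e-09 by edgeR). Per kilobase it reached 40.3 in U2932 beside 295 for PSMA7. PSMB8 (−0.68, adjusted p = 0.00365) and PSMB10 (−0.81, adjusted p = 0.004) were lower in U2932 than in TMD8.

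In U2932, anti-CD20 antibody raised many proteasome genes by a modest amount. R upregulated 22 of the 46 and downregulated 1, PSMG2, against 16.8% and 17.4% of the 14635 genes tested. OF upregulated 20 and downregulated 2, PSMG2 and PSMD6, against 18.7% and 17.8%. The median log2 fold change of the 46 genes was 0.21 with R and 0.15 with OF, where the medians of all genes tested were −0.02 and 0.01, and 39 and 38 of the 46 were above 0, against 48.1% and 50.6% of all genes. Both contrasts share the isotype libraries, and of the upregulated genes 18 were called in both.

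Few of these changes were large. At least 1.5-fold, R upregulated 6 genes of the list (5.19% of all genes tested) and OF 2 (5.9% of all). Without the 4 uncertain genes the counts were 20 of 42 with R and 17 of 42 with OF. A fit of all 12 libraries together, in which TMD8 adds its larger spread, left 2 upregulated genes for each antibody, ADRM1 and PSMD8 in both cases, against 3.66% and 3.94% of all genes. Leaving out the OF library of culture 1 or of culture 2 lowered the OF count to 10 or 13, and 16 upregulated genes with R and 10 with OF were called in each of the 6 fits without a U2932 library. Calls lost in some of these fits, beside those given with the genes below, were PSMA3 (0.19 to 0.41) and PSMA6 (0.38 to 0.80) with R, and PSMA2, PSMA6, PSMA7, PSMB2, PSME1 and PSMG3 with OF.

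**Figure D3:**
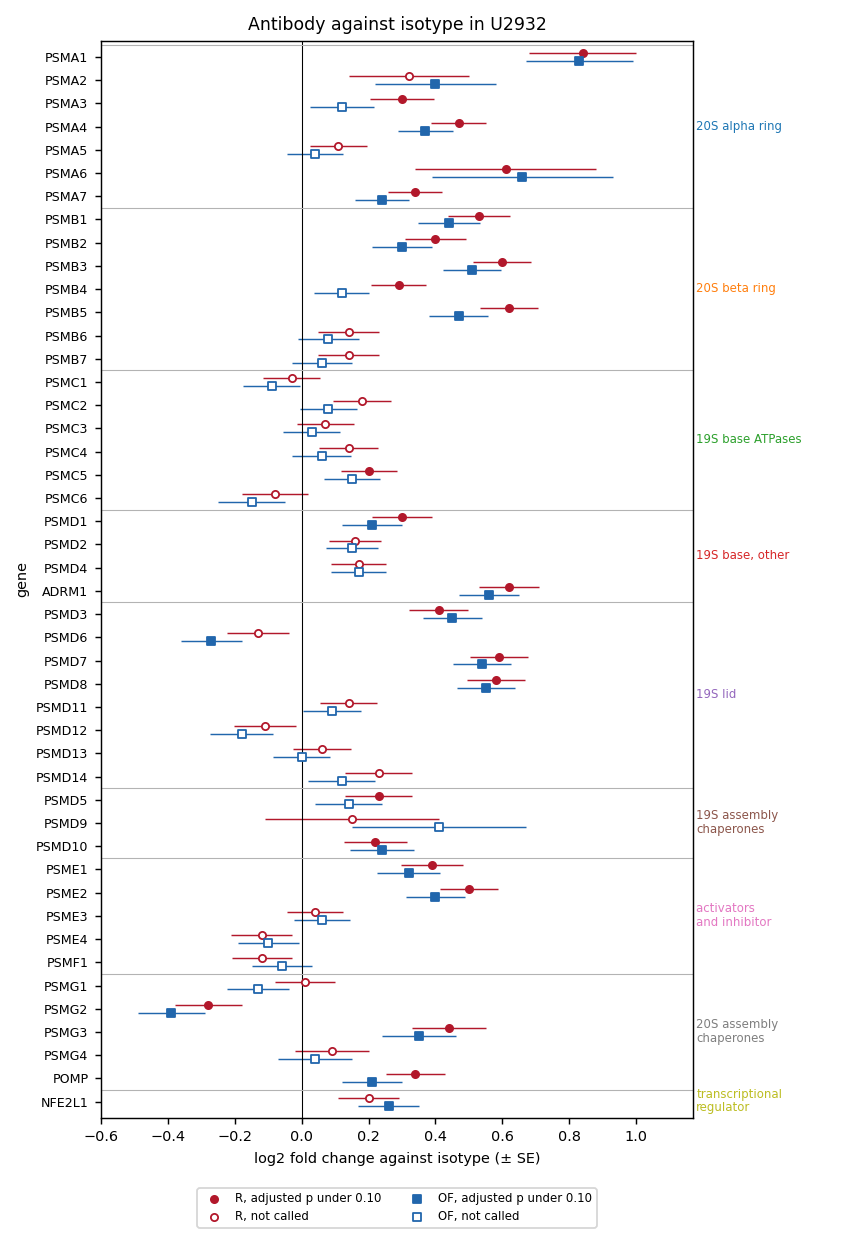
Log2 fold change against isotype in U2932 with R (red circles) and OF (blue squares), with standard errors as bars and filled symbols for adjusted p below 0.10. Nearly all of the core lies to the right of 0, the ATPases lie near 0, and PSMG2 lies to the left.

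In the 20S core, all 14 genes were above 0 with each antibody, 10 were called with R and 9 with OF, and the median log2 fold change with R was 0.34 in the alpha ring and 0.40 in the beta ring. PSMA4 rose from 283 and 293 CPM in the isotype libraries to 387 and 410 with R and 370 and 375 with OF, so that no antibody library overlapped the isotype range. Its log2 fold change was 0.47 ± 0.082 with R and 0.37 ± 0.082 with OF (adjusted p = 1.1e-04 and 0.00119). PSMA7 rose by 0.34 and 0.24, and PSMA3 was called with R at 0.30 and not with OF at 0.12. With a correction for GC content PSMA3 was called with OF as well (0.25, adjusted p = 0.00771 by edgeR). PSMA5 did not pass with either antibody (0.11 ± 0.084 and 0.04 ± 0.084). It passed with both under the same GC correction (0.20 with R and 0.18 with OF, adjusted p = 0.0233 and 0.0445 by edgeR). PSMA1 had the largest values of the list, 0.84 and 0.83, on 144 to 246 counts, and PSMA6 reached 0.61 and 0.66 on 38 to 57 counts.

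Of the 3 active-site genes only PSMB5 (chr14:23016543-23035230 of GRCh38) was called. It was read at 101 and 98.3 CPM under isotype, at 152 and 155 with R and at 140 and 135 with OF. All 4 antibody libraries stood above both isotype libraries, and R gave 0.62 ± 0.088 (adjusted p = 7.2e-06) and OF 0.47 ± 0.088 (adjusted p = 2.5e-04). PSMB6 was read at 122 and 107 CPM under isotype, 126 and 125 with R and 118 and 123 with OF, a change of 0.14 ± 0.092 with R (adjusted p = 0.299). PSMB7 was read at 198 and 177 CPM, then 200 and 214 with R and 189 and 203 with OF, likewise 0.14 ± 0.09 with R (adjusted p = 0.26). For PSMB6 and PSMB7 both R libraries lay above both isotype libraries, and the OF libraries overlapped the isotype range. Whether PSMB5 changed more than the other active sites was not tested.

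Among the structural beta subunits, PSMB3 rose by 0.60 ± 0.087 with R and 0.51 ± 0.087 with OF, PSMB1 by 0.53 and 0.44, and PSMB2 by 0.40 and 0.30. PSMB4 rose with R (0.29, adjusted p = 0.00934) and had 0.12 with OF (adjusted p = 0.279). The 3 active-site genes summed to 420 and 382 CPM under isotype, 477 and 495 with R and 448 and 461 with OF, and PSMB8, PSMB9 and PSMB10 summed to 110 and 95.1, then 131 and 133, and 122 and 124.

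**Figure D4:**
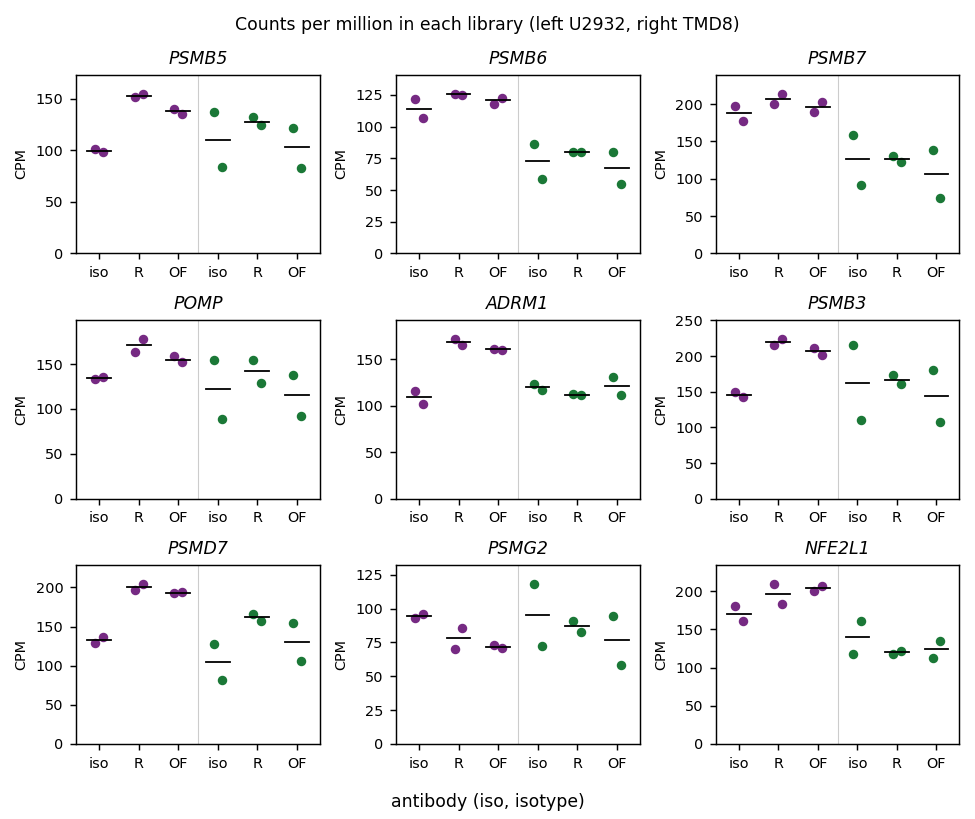
CPM of 9 proteasome genes in each library (points) with the mean of the 2 libraries of a condition (line), U2932 in purple on the left of each panel and TMD8 in green on the right. In U2932 PSMB5, ADRM1, PSMB3 and PSMD7 rise with both antibodies and PSMG2 falls, while in TMD8 the isotype and OF points spread more widely than the R points.

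In the 19S base, 1 of the 6 ATPases that unfold the substrate, PSMC5, was called, with R. With a replicate block PSMC2 was called as well (0.18 with R, adjusted p = 0.0851 by edgeR). The GC correction called PSMC2 with both antibodies (0.27 with R and 0.22 with OF, adjusted p = 0.00183 and 0.0117 by edgeR). PSMC5 was read at 211 and 221 CPM under isotype, 242 and 254 with R and 239 and 242 with OF. That is 0.20 ± 0.084 with R and 0.15 ± 0.084 with OF (adjusted p = 0.0846 and 0.181). All 4 antibody libraries were above the isotype range, yet the call with R was lost in 5 of the 6 fits without a library, with values of 0.15 to 0.23. The other ATPases ran from −0.08 (PSMC6) to 0.18 (PSMC2) with R.

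Among the remaining base subunits, ADRM1 (chr20:62302093-62308862), a ubiquitin receptor, stood out. It was read at 116 and 102 CPM under isotype, 172 and 165 with R and 161 and 160 with OF, with a clear gap between isotype and antibody. The change was 0.62 ± 0.091 with R and 0.56 ± 0.091 with OF (adjusted p = 1.1e-05 and 4.9e-05), and with each antibody it was called under all 18 alternatives other than the limit on fold size. PSMD1 rose by 0.30 with R, a call lost without the R library of culture 2 (0.22 to 0.38 over the 6 fits), and by 0.21 with OF, a call lost in 3 of the 6 fits (0.14 to 0.27). PSMD4, also a ubiquitin receptor, and PSMD2 had 0.17 and 0.16 with R and did not pass (adjusted p = 0.132 and 0.129 by edgeR). PSMD2 did pass with a replicate block (adjusted p = 0.0989 by edgeR). PSMD4 passed with R under the GC correction (0.14, adjusted p = 0.0746 by edgeR).

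In the lid, 3 of 8 genes rose with each antibody and 1 fell with OF. PSMD7 (chr16:74296775-74306288), the partner of the deubiquitinase PSMD14, went from 129 and 137 CPM to 196 and 204 with R and 193 and 194 with OF. Its change was 0.59 ± 0.087 with R and 0.54 ± 0.087 with OF (adjusted p = 1.2e-05 and 3.7e-05). PSMD8 rose by 0.58 and 0.55 and PSMD3 by 0.41 and 0.45. PSMD14 itself had 0.23 ± 0.1 with R (adjusted p = 0.101, and 0.0527 with a replicate block), and PSMD11 and PSMD13 had 0.14 and 0.06. With the GC correction PSMD14 and PSMD11 were called with R (0.25 and 0.14, adjusted p = 0.0218 and 0.0813 by edgeR). PSMD6 fell with OF by 0.27 on the log2 scale (adjusted p = 0.0293), a call lost without either OF library or without the isotype library of culture 2 (−0.21), and PSMD12 had −0.18 (adjusted p = 0.145).

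The assembly chaperones did not move as one. POMP (chr13:28659104-28678925) was read at 133 and 136 CPM under isotype, 163 and 178 with R and 159 and 152 with OF. R raised it by 0.34 ± 0.089 (adjusted p = 0.0046). The rise with OF was smaller, 0.21 ± 0.089 (adjusted p = 0.0801), and that call was lost in 3 of 6 fits without a library, at 0.17 to 0.23. PSMG3 rose from 34.2 and 29.5 CPM to 45.1 and 41.5 with R and 40.6 and 40.7 with OF, by 0.44 and 0.35, without overlap between antibody and isotype. PSMG2 fell from 92.8 and 96.2 CPM to 70.2 and 85.8 with R and 73.2 and 70.6 with OF. Its change was −0.28 ± 0.1 with R and −0.39 ± 0.1 with OF (adjusted p = 0.0389 and 0.0039), and that with R was −0.14 and not called without the R library of culture 1. PSMG1, the dimer partner of PSMG2, had 0.01 and −0.13, and PSMG4, the partner of PSMG3, had 0.09 and 0.04, none of which passed.

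Of the 19S chaperones, PSMD10 was read at 56.5 and 56.4 CPM under isotype, 63.1 and 68.5 with R and 66.6 and 66.7 with OF. The gain was 0.22 ± 0.095 with R and 0.24 ± 0.096 with OF (adjusted p = 0.0857 and 0.0595), with all antibody libraries above isotype, and the calls were lost in 4 and 2 of the 6 fits without a library, at values of 0.16 to 0.28. PSMD5 holds the base back from the core until assembly is complete. Under the GC correction it was called with R and OF (0.31 and 0.26, adjusted p = 0.00265 and 0.0111 by edgeR). Without that correction PSMD5 was called with R only (0.23, adjusted p = 0.0946). That call was lost in 5 of the 6 fits without a library, at 0.16 to 0.29.

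Of the 5 activators and inhibitors, 2 rose with each antibody. PSME2 was read at 122 and 123 CPM under isotype, 173 and 173 with R and 159 and 164 with OF, a rise of 0.50 ± 0.087 with R and 0.40 ± 0.087 with OF (adjusted p = 8.4e-05 and 9.4e-04). Its partner PSME1, with which it forms the interferon-inducible cap of the core, rose by 0.39 and 0.32. PSME3, the nuclear relative, had 0.04 and 0.06, and PSME4 and the inhibitor PSMF1 had −0.12 each with R, none of them called.

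NFE2L1 (chr17:48048329-48061487) was read at 180 and 161 CPM under isotype, 209 and 183 with R and 200 and 207 with OF. The change was 0.20 ± 0.092 with R and 0.26 ± 0.092 with OF (adjusted p = 0.107 and 0.0358), and that with OF was not called without either OF library or without the isotype library of culture 2, at 0.18 to 0.33 over the 6 fits. With a replicate block NFE2L1 was also called with R (adjusted p = 0.0659). As the factor is controlled mainly by cleavage and stability of its protein, its RNA level does not measure its activity.

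Genes around the proteasome gave the following counts in U2932. Of the proteins that process NFE2L1 or act beside it, R raised KEAP1 (0.41), MAFG (0.32) and MAFF (0.64) of 10 and lowered DDI2 (−0.35) and NGLY1 (−0.24), which cleave and deglycosylate NFE2L1, and OF raised the same 3 genes and lowered those 2 and NFE2L3 (−0.34). Of 10 shuttle factors and p97 proteins, R raised UFD1 (0.88) and VCP (0.59) and lowered RAD23B (−0.34), and OF also raised UBQLN2 (0.33). Among the ubiquitin and E1 genes reported here, both antibodies raised RPS27A (0.57 and 0.53), UBB (0.36 and 0.28) and UBA1 (0.29 and 0.45). RPS27A also encodes a ribosomal protein. Of 4 immunoproteasome or testis subunits tested, R raised PSMB8, PSMB9 and PSMB10 (0.30, 0.41 and 0.43) and OF PSMB9 and PSMB10 (0.25 and 0.46), and of 7 other proteasome-bound proteins R raised SEM1 (0.26) alone. In TMD8 no gene of these lists was called. The share of counts on ribosomal protein genes was 4.93 to 5.28% in the U2932 isotype libraries and 6.74 to 7.34% in the antibody libraries, and its part in these results was not tested.

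R and OF were also compared directly in U2932, as the study asked how these antibodies differ. None of the 46 genes differed at an adjusted p below 0.30 by edgeR, against 0.00683% of all genes tested. None had an unadjusted p below 0.05 by edgeR, and DESeq2 called none. The differences ran from −0.25 (PSMD9) to 0.18 (PSMA3), and their median standard error was 0.09. The median was 0.07, with 37 of the 46 genes higher with R than with OF, against 50.3% of all genes tested, and R stood higher in all 6 ATPases and all 7 beta subunits. By culture this median was 0.03 in culture 1 and 0.11 in culture 2.

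In TMD8, proteasome RNA differed between the cultures of the isotype and OF conditions. Of the 46 genes, 38 were lower in the isotype library of culture 2 than in that of culture 1, and 41 were lower in the OF library of culture 2, with median log2 differences of −0.56 and −0.52. All genes tested had medians of 0.01 and 0.01 there, and a fall of more than 0.4 was seen in 31 of the 46 genes in each case, against 21.4% and 18.6% of all genes. The R libraries of the same cultures differed by −0.05, and those of U2932 by −0.01 to 0.07. The summed level of the 46 genes was 5346 CPM in the isotype library and 5184 CPM in the OF library of culture 2, against 6529 to 7086 CPM in the other 4 TMD8 libraries. As the labels give no batch, it cannot be told apart whether these 2 libraries differ by culture, handling or RNA.

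**Figure D5:**
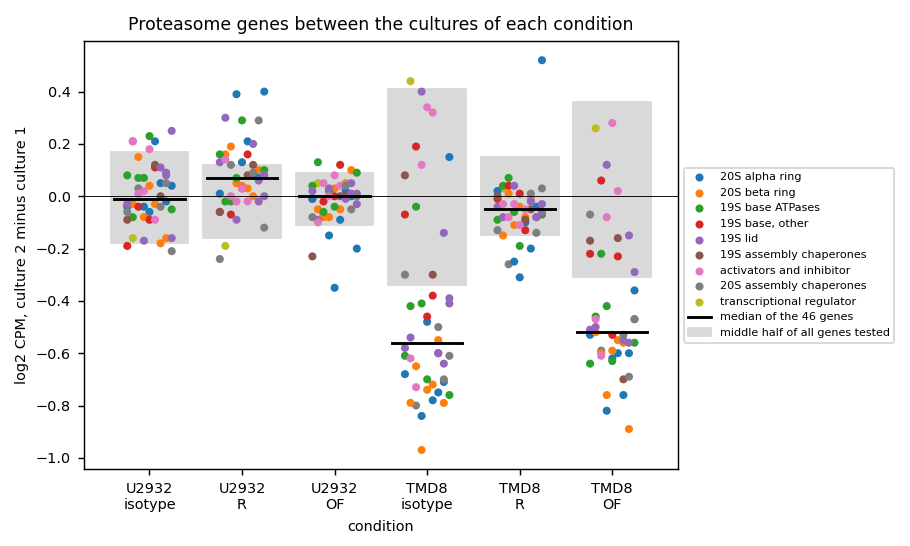
Log2 CPM in culture 2 minus culture 1 for each of the 46 genes (points, by group), with their median (black line) and the interquartile range of all genes tested (grey). The isotype and OF libraries of TMD8 have most proteasome genes below the grey band, and the other 4 conditions have them around 0.

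The fall was shared by most of the particle and spared a few genes. PSMB3 was read at 215 and 110 CPM in the isotype libraries and at 181 and 107 in the OF libraries, but at 174 and 161 with R, and its isotype difference of −0.97 was the largest. PSMB7 fell most between the OF libraries, from 138 to 74.6 CPM. NFE2L1 went the other way, at 118 and 161 CPM under isotype, 112 and 135 with OF and 118 and 121 with R. PSMD2, PSMD3, PSME4 and PSMF1 were likewise higher in culture 2 in both conditions, and PSMC4 (166 and 162 CPM) and ADRM1 (123 and 117 CPM) were nearly level under isotype. In the same 2 libraries ribosomal protein genes took 7.11% and 7.84% of counts and mitochondrial genes 3.99% and 3.73%, against 11 to 11.9% and 5.7 to 6.23% in the other 4, and their part in the fall was not tested.

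Against isotype in TMD8, no proteasome gene was called with either antibody. The background was also low, with 0.401% of 14227 genes higher and 0.246% lower with R, and 0.471% and 0.344% with OF. None of the 46 had an unadjusted p below 0.05 with R and 1 did with OF (PSMA6), and DESeq2 called none. The median standard error was 0.26, against 0.09 in U2932, and the values by library are given below.

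The median log2 fold change of the 46 genes in TMD8 was 0.09 with R and −0.09 with OF, and it followed the libraries. With R it was −0.09 within culture 1 and 0.39 within culture 2, and the fit without the isotype library of culture 1 gave 0.43 and that without the one of culture 2 gave −0.11. With OF it was −0.08 and −0.06 within the cultures, where both libraries of culture 2 were low, and −0.32 without the OF library of culture 1, 0.13 without that of culture 2, 0.19 without the isotype library of culture 1 and −0.29 without that of culture 2. The sign of the median in TMD8 therefore turned with the library left out.

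Named genes show the same spread. PSMB5 was read at 137 and 83.4 CPM under isotype, 132 and 125 with R and 122 and 83.3 with OF, PSMB6 at 86.2 and 59, 80.3 and 79.7, and 80.3 and 54.6, and PSMB7 at 159 and 92 under isotype and 130 and 123 with R. POMP was read at 155 and 89.3 CPM under isotype, 155 and 129 with R and 138 and 91.7 with OF. In each case the R libraries lay at or within the isotype range. PSMD7 was the gene with the smallest adjusted p with R (0.329), at 128 and 82 CPM under isotype, 166 and 157 with R and 155 and 106 with OF, so that R alone cleared the isotype libraries.

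With a replicate block, which compares libraries within a culture, 2 genes of the lid were called higher with R in TMD8, PSMD7 (0.66 ± 0.16, adjusted p = 0.0383 by edgeR) and PSMD8 (0.50 ± 0.15, adjusted p = 0.0665), against 8.99% of all genes. Both were also upregulated in U2932. The block takes the shift of culture 2 as shared by every condition. The 46 genes shifted by a median of −0.05 with R, against −0.56 with isotype and −0.52 with OF. Leaving out the OF and isotype libraries of culture 2, an alternative chosen after seeing the data, gave 3 genes higher and 8 lower with R (against 15.9% and 14.4% of all genes), and 3 higher and 3 lower with OF (against 12.5% and 10.9%). This fit has 1 isotype and 1 OF library and assumes that they vary as the R libraries do. The genes higher with R were PSMD7, PSMD8 and PSME4 (0.33, 0.30 and 0.36), and PSMG2 was the lower gene with the smallest adjusted p (−0.45 ± 0.12, adjusted p = 0.00236). With OF the values of the genes called higher were 0.38 for PSMD8, 0.34 for PSME3 and 1.03 for the uncertain PSMA6. Those of the genes called lower with OF were −0.39 for PSMC1, −0.33 for PSMD14 and −0.33 for PSMG2. The other genes lower with R were PSMA2, PSMB3, PSMB7, PSMC1, PSMC6, PSMD4 and PSMD14.

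R and OF did not separate in TMD8 either, with 0 of 46 genes called by edgeR, against 0% of all genes. None had an unadjusted p below 0.05 by edgeR, and DESeq2 called 0 of the 46. The median was 0.23, with 37 of the 46 genes higher with R, against 51.3% of all genes tested, and it was 0.04 within culture 1 and 0.49 within culture 2. Without the OF library of culture 2 it was 0.01 and without that of culture 1 it was 0.52.

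Whether a proteasome gene responded differently in the 2 lines was tested as an interaction of antibody and cell line over all 12 libraries. No gene of the list passed with R or OF by edgeR, against 0.321% and 0.105% of all 16187 genes tested. ADRM1 came closest with R, at 0.73 ± 0.17 on the log2 scale (U2932 minus TMD8, adjusted p = 0.152), with 113 and 112 CPM in the R libraries of TMD8 against 123 and 117 under isotype. PSMD3 followed at 0.72 ± 0.21 (adjusted p = 0.219), with 160 and 164 CPM with R against 171 and 226 under isotype in TMD8. With a replicate block ADRM1 and PSMD3 passed (adjusted p = 0.0239 and 0.037 by edgeR), against 6.04% of all genes. The block assumes here too that R shared the shift of culture 2. DESeq2 called both as well (adjusted p = 0.00213 and 0.053), and its share over all genes is not given here. With the block and a GC correction PSMD3 passed (0.49, adjusted p = 0.0819 by edgeR) and ADRM1 did not. Without the TMD8 isotype library of culture 1 the values were 0.70 for ADRM1 and 0.92 for PSMD3. Without that of culture 2 neither gene was called. The larger number of calls in U2932 than in TMD8 is thus not, for most of these genes, a tested difference between the lines.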

How the data were processed

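The authors deposited raw counts per gene without normalization, and the submitters' processing notes name Trim Galore 0.6.0 and STAR 2.7.0e, the latter run against GRCh38 and used for counting. The annotation release and strand setting of the counting are not given in the sources used here. The 12 columns, of 15440226 to 27110612 counts, were matched to libraries by label, and 0 columns were left unused. Names, coordinates and lengths came from GENCODE 29 (GRCh38), promoters from RefSeq (GRCh38.p14).

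Counts of each line were filtered with filterByExpr (minimum count 10), scaled by TMM and fitted with edgeR 4.0.16 (quasi-likelihood) in R 4.3.3. DESeq2 1.42.0 was an alternative. A standard error is the log2 fold change over the root of F. The interaction and the lines were fitted over 12 libraries. Same-numbered libraries were taken to share a culture, which the labels do not state. Their deviations correlated at 0.69 between OF and isotype in TMD8, but at 0.22 between R and OF and 0.23 between R and isotype. In U2932 they correlated at −0.05 to 0.1. A replicate block was used as an alternative. Steps were tested on simulated data. Figures used Python 3.11.15 and matplotlib 3.10.9.

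The members and gene lists were chosen with earlier results of these data known. All 46 genes are named by group, with each library's value for NFE2L1, POMP, the active-site genes and the gene of each group with the smallest p-value with R in U2932. PSMG2, PSMB3, PSMD3 and others given in the same way were chosen after their values were seen. Genes of other lists are named where they passed. A result of the ubiquitin list is not reported here.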

Additional observations from a re-analysis of the deposited data

How the results depend on the processing

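Alternatives were DESeq2, other scalings, filters, limits, sets of libraries, a GC content correction and a replicate block. In U2932, the fit of all 12 libraries gave 2 genes higher and 0 lower with each antibody, where TMD8 adds its larger spread. A limit of 1.5-fold gave 6 higher with R, 2 with OF and 0 lower with either, and 9 between the lines. Library size alone as scaling gave 5 lower with R and 4 with OF, and medians of 0.11 and 0.07 in U2932 and −0.15 with OF in TMD8. It shifted the median of all genes by about 0.1, to −0.12 with R in U2932. The GC correction gave medians of 0.26 and 0.17, and 0.26 and 0.18 with the replicate block. With this correction alone in U2932, R also raised NFE2L1, PSMA2, PSMA5, PSMC2, PSMD4, PSMD11 and PSMD14, and OF also raised PSMA3, PSMA5, PSMC2 and PSMD5. With OF in U2932 the median was 0.12 without a filter, 0.13 with 10 counts in every library and 0.14 with only the 4 libraries compared. Without each library in turn, R in U2932 gave 17 to 23 higher, 0 to 3 lower and medians of 0.19 to 0.26, and OF gave 10 to 20 higher, 1 to 5 lower and 0.15 to 0.19. In TMD8 the OF median was −0.32 to 0.19, and genes differing between the lines numbered 10 to 26. The replicate block, a paired analysis, gave 2 genes higher with R in TMD8, also with GC correction, 23 between the lines with or without it, and interactions of 2 genes with R, or 1 with GC correction. In U2932 it gave 26 higher with R, adding NFE2L1, PSMC2, PSMD2 and PSMD14, and it moved no other count over the 46 genes by over 1.5 times. The share of all genes called with the block in U2932, or without each library in turn, is not given here. Those counts are therefore not set against a background. For R in TMD8 the fit of all 12 libraries gave 1 gene higher. DESeq2 gave interactions of 2 genes with R and 1 with OF, and leaving out a library gave 0 to 2 and 0 to 1. Without the OF and isotype libraries of culture 2 in TMD8, R gave 3 higher and 8 lower and OF 3 and 3, and PSMB3 (−0.37) and PSMB7 (−0.33) turned sign with R. Of 5382 single-gene values, 302 that were never called also turned. Each condition has 2 libraries, so standard errors are imprecise, most of all in TMD8. Causes were not tested.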
